A study of Mus musculus with 12 samples.

Results

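The D-type cyclin genes Ccnd1, Ccnd2 and Ccnd3, the kinase genes Cdk4 and Cdk6, the inhibitor genes Cdkn1a, Cdkn1b, Cdkn1c and Cdkn2c, and the retinoblastoma gene Rb1 were followed in LSK cells of the mouse bone marrow. They are 10 of the 35999 genes in the expression table and were taken by gene name. LSK cells lack lineage markers and carry Sca-1 and KIT, a sort that enriches stem cells and early progenitors. RNA-seq covered 6 mice labelled WT and 6 mice labelled Fancg KO, untreated as far as the labels say, with 1 library per mouse and replicate numbers 2 to 7 in both genotypes. The KO mice are given as Fancg-/- with no tissue-specific driver named, so the cells around the LSK cells carry the same genotype, and Fancg is a gene of the Fanconi anemia core complex that acts in the repair of DNA interstrand crosslinks. Age, sex and littermate status were not given in the sources used here.

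Cells in G1 commit to DNA replication when D-type cyclins bring CDK4 or CDK6 to phosphorylate the retinoblastoma protein, which then releases E2F transcription factors. INK4 inhibitors such as the product of Cdkn2c (p18) block CDK4 and CDK6 themselves, whereas the CIP/KIP inhibitors encoded by Cdkn1a (p21), Cdkn1b (p27) and Cdkn1c (p57) act on cyclin-CDK complexes. Hematopoietic stem cells are mostly quiescent and are known to depend on CIP/KIP inhibitors and on the D-type cyclins, and Cdkn1a is a textbook target of p53. The comparison of the genotypes asks whether RNA of this switch differs when the Fanconi pathway is lost.

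The values, called signal here, are estimated reads per gene, scaled by 1 size factor per library. Libraries summed to between 1576081 and 2672915 in signal, or about 1235109 to 2471417 reads. Fancg itself did not separate the labels, at 10.3 ± 6.96 (SD, n = 6) in WT and 8.53 ± 4.18 (SD, n = 6) in KO (two-sided exact permutation test, p = 0.636), and the part of the gene that was deleted was not given in the sources used here. Directions below are therefore those between the labels. A single gene, Lars2, took 15.6% to 19.0% of the libraries of replicates 2 and 3 and 24.7% to 36.2% of the others. WT replicate 3 and KO replicate 7 had a summed signal of 4 Y-linked genes of 26.6 and 49.7, against 188.7 to 435.3 in the other 10 libraries. Of 10 LSK markers, 9 averaged 10 or more in signal over all 12 libraries, with 343.4 for Kit and only 10.8 for Ly6a, which encodes Sca-1. Markers of mature cells reached that level for 0 of 7 erythroid, 1 of 7 T and NK cell, 2 of 8 B cell, 4 of 10 granulocyte and monocyte and 1 of 5 megakaryocyte genes. Only the markers that reached that level were tested, and 2 of them had an unadjusted limma p under 0.05, beside 3.67% of all genes tested. Flt3 was lower in KO (log2 fold change -0.51) and Itga2b was higher (log2 fold change 0.72), both with a Benjamini-Hochberg adjusted limma p of 0.9996. The summed signal of the LSK markers ran from 1706 to 2255 in WT and from 1381 to 2086 in KO (exact permutation test, p = 0.238), and that of the megakaryocyte markers from 15.8 to 56.1 and from 24.6 to 87.3 (exact permutation test, p = 0.0693). The part of these shifts in the values below was not tested. In RNA from a sorted pool, fewer cells that express a gene and less RNA per cell cannot be told apart.

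The 3 D-type cyclins are close relatives, so it matters that their reads can be told apart. The first 30 coding bases are shown for each, from GENCODE M21 transcripts (mouse build GRCm38), with the codons of the Leu-x-Cys-x-Glu motif that contacts the retinoblastoma protein in capitals.
Ccnd1: atggaacaccagCTCCTGTGCTGCGAAgtg
Ccnd2: atggagCTGCTGTGCTGCGAGgtggacccg
Ccnd3: atggagCTGCTGTGTTGCGAGggcacccgg
The motif lies at codons 5 to 9 of Ccnd1 and at codons 3 to 7 of Ccnd2 and Ccnd3. Read position by position, Ccnd2 and Ccnd3 share 24 of these 30 bases, Ccnd1 and Ccnd2 share 12, and Ccnd1 and Ccnd3 share 11. The later motif of Ccnd1 was not moved into line, so its lower counts do not measure how alike the genes are. Of the 45 pairs among the 10 genes, 0 share a stretch of 31 bases between their annotated transcripts, on either strand, so no read stretch of that length fits 2 of them. With other genes such stretches do occur. On the same strand they make up 4.32% of the stretches of Ccnd3, mostly with the pseudogene Ccnd3-ps, 3.24% of Cdkn1a and at most 2.64% of any other member. Counting both strands, the share rises to 22.3% for Ccnd1, all of it with LTO1, to 19.5% for Cdk4, to 27.2% for Cdkn1c and to 13.2% for Rb1. Whether strand was used in counting was not given in the sources used here, so reads from these overlaps are uncertain.

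Per kilobase of the longest annotated transcript, the kinases stood at the top of the 10 genes and Cdkn1c at the bottom. Cdk4 had the highest level, 62.3 ± 11.8 signal per kilobase (SD, n = 12), and lay above Cdk6 (27.3 ± 3.09) in 12 of 12 libraries. Cdkn1b, the most abundant inhibitor, followed at 22.3 ± 4.32, above Ccnd3 (14.3 ± 3.96) in 10 of 12 libraries. Cdkn2c (7.77 ± 3.34), Ccnd2 (7.08 ± 1.01) and Ccnd1 (5.72 ± 2.59) lay close together. Cdkn2c exceeded Ccnd2 in 5 of 12 libraries and Ccnd2 exceeded Ccnd1 in 9, so these neighbours did not differ beyond their spread. Ccnd1 and Cdkn1a (4.23 ± 1.69) overlapped as well, with Ccnd1 higher in 7 of 12. Rb1 (1.72 ± 1.15) and Cdkn1c (0.364 ± 0.393) closed the order. The order depends on which transcript is assumed. With the median transcript length, Cdk6 came first at 215.2 signal per kilobase and Cdk4 second at 138.4, and only 2 of the 10 genes kept their rank.

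**Figure D1:**
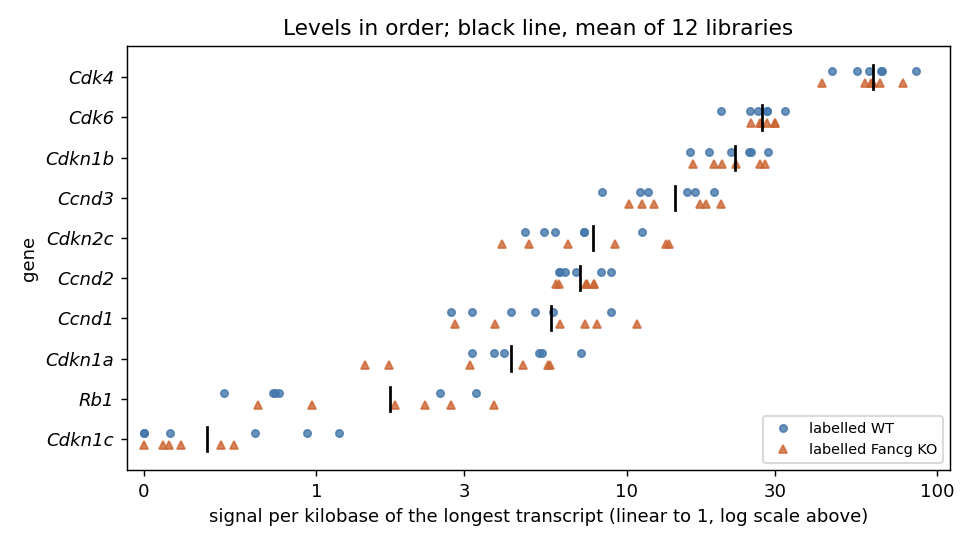
Signal per kilobase of the longest transcript (horizontal axis, linear up to 1 and logarithmic above) for each of the 10 genes in each library, circles for WT labels, triangles for KO labels and a black line for the mean of 12 libraries. Cdk4 lies above Cdk6 in every library, and the points of Cdkn2c, Ccnd2 and Ccnd1 overlap.

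Within the families, the shares of the level per kilobase of the longest transcript were close between the genotypes in Ccnd3, Cdk4 and Cdkn1b. Ccnd3 made up 52.9% ± 8.88 (SD, n = 6) of the D-type cyclin level in WT, from 45.5% to 64.4%, and 52.2% ± 10.9 (SD, n = 6) in KO, from 37.5% to 69.6%. Ccnd2 gave 28.1% and 25.3%, and Ccnd1 gave 18.9% and 22.6%. Cdk4 held 69.8% ± 5.64 of the kinase level in WT and 68.2% ± 4.996 in KO. Among the 4 inhibitors Cdkn1b held 64.5% ± 4.06 in WT and 64.6% ± 7.01 in KO, Cdkn2c 20.4% and 24.2%, Cdkn1a 13.9% and 10.5%, and Cdkn1c 1.27% and 0.647%. With the median transcript length the share of Ccnd3 was 47.9% and 48.7%, that of Cdk4 39.97% and 38.1%, which puts Cdk6 first, and that of Cdkn1b 68.5% and 69.4%. Summed over the family, the level of the D-type cyclins was 25.8 ± 5.60 signal per kilobase in WT and 28.4 ± 4.70 in KO, and that of both kinases 89.95 ± 13.7 and 89.3 ± 10.7.

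Of the 10 genes, 7 had a mean signal of at least 10 and were tested with limma on log2(signal + 1), together with all other genes above that level. Cdkn1a (mean 8.80), Rb1 (8.02) and Cdkn1c (0.693) fell below it and entered limma only in the fit without a filter described at the end. Their p values below come from the exact permutation test, whose smallest possible p with 6 against 6 libraries is 0.00216. Of the 7, 0 had a limma p under 0.05, where 326 of the 8887 genes tested (3.67%) did, and 0 of all genes passed after adjustment. Every adjusted limma p for a member was 0.9996. Their median log2 fold change, KO minus WT, was 0.07, beside 0.0031 over all genes tested. The range of KO overlapped that of WT for all 10 genes. The share of all genes with overlapping ranges was not computed, so this count is not read as particular to them. The 95% intervals below come from limma and the p of each gene from the two-sided exact permutation test, and a p above the threshold does not show equal levels.

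**Figure D2:**
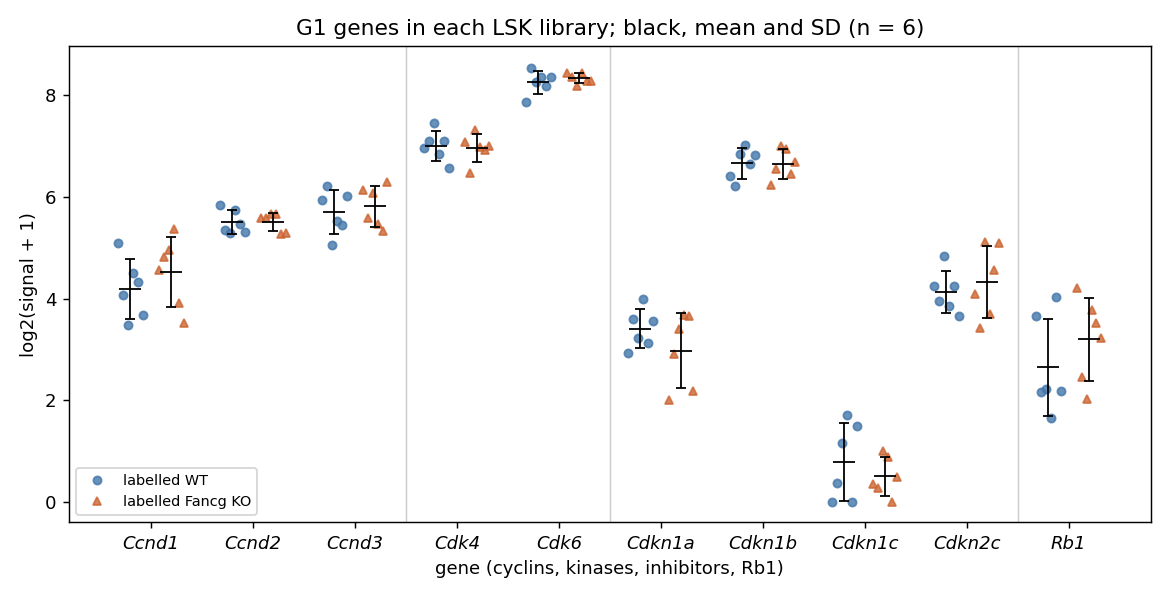
The log2(signal + 1) of each of the 10 genes (vertical axis) in each library, circles for the 6 WT labels and triangles for the 6 KO labels, with mean and SD in black. The points of the genotypes overlap for every gene, and Cdkn1c lies at 0 in 3 libraries.

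Ccnd3 (chr17:47505051-47599691) encodes a D-type cyclin known for its part in lymphocyte development. Its signal ran from 32.1 through a median of 52.8 to 73.8 in WT and from 39.1 through 56.9 to 77.9 in KO. The groups overlapped over almost their whole range. The log2 fold change was 0.12 (95% interval -0.37 to 0.60, exact p = 0.628).

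Ccnd2 (chr6:127125162-127152193), a cyclin induced by mitogens and cytokines in hematopoietic cells, had nearly the same mean in both genotypes. It ran from 38.3 through 41.8 to 56.2 in WT and from 37.4 through 47.1 to 49.7 in KO. The log2 fold change was 0.0075 (95% interval -0.32 to 0.33, exact p = 0.935). Its highest value over all 12 libraries was 1.5 times its lowest, and its coefficient of variation was 14.95%, second to Cdk6 (11.6%) as the lowest of the 10 genes and beside 15.07% from counting error alone at the approximate reads of these libraries. Of the 500 tested genes nearest to it in level, 5.0% had a smaller spread within genotypes.

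Ccnd1 (chr7:144929931-144939925), a cyclin that many growth signals induce, was the most variable of the 7 tested members. It ran from 10.1 through 17.5 to 33.2 in WT and from 10.5 through 25.1 to 40.2 in KO. The highest libraries were KO replicate 5 and WT replicate 2, and the lowest were WT replicate 4 and KO replicate 7, so high and low values occurred in both genotypes. The log2 fold change was 0.33 (95% interval -0.38 to 1.04, exact p = 0.381), the largest of the 7, and it moved to 0.16 without KO replicate 5, to 0.19 without WT replicate 4 and to 0.53 without KO replicate 7. Its coefficient of variation was 45.4%, or 2.11 times that expected from counting, and 85.6% of the 500 genes nearest in level had a smaller spread. Without WT replicate 3 and KO replicate 7 the log2 fold change was 0.51, with an unadjusted limma p still above 0.05.

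Cdk4 (chr10:127063534-127067920) encodes a kinase partner of the D-type cyclins. It stood above Cdk6 per kilobase of the longest transcript and below it with the median length. Its signal ran from 94.1 through 129.6 to 175.2 in WT and from 87.4 through 126.8 to 159.5 in KO. Both the highest and the lowest library lay close to a library of the other genotype, and the log2 fold change was -0.04 (95% interval -0.40 to 0.32, exact p = 0.805). Cdk6 (chr5:3341485-3531008), the kinase linked to exit of stem cells from quiescence, ran from 231.8 through 315.9 to 372.5 in WT and from 290.3 through 319.6 to 346.4 in KO. All 6 KO values lay inside the WT range. The log2 fold change was 0.07 (95% interval -0.20 to 0.35, exact p = 0.511), the narrowest interval of the 7, which corresponds to 0.869 to 1.27-fold on the log2(signal + 1) scale. Only 14.4% of the 500 genes nearest in level to Cdk6 had a smaller spread.

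Promoter windows of 250 bases before to 50 bases after the start were available for 6 of the 10 genes from RefSeq (GRCm38.p6). They were searched for CACGTG, the E-box that MYC and related factors bind, which reads the same on both strands. Every match in the windows of these genes is shown. The matches are in capitals.
Cdk4 chr10:127063355-127063376 (+): cagccagtCACGTGccacacag
Cdk4 chr10:127063409-127063430 (+): caaggggtCACGTGggatagca
Cdk4 chr10:127063429-127063450 (+): caacaggtCACGTGgccgtcag
Cdk4 chr10:127063516-127063537 (+): gtgaagatCACGTGtccagaac
Cdk6 chr5:3343665-3343686 (+): tgcggcccCACGTGggtgaacc
Cdkn2c chr4:109665325-109665346 (-): tgaataatCACGTGtgaatcga
At least 1 copy stands in 7.15% of the 32851 windows of all genes, and 4 copies, as in Cdk4, stand in 0.0244%, which is 8 windows. The windows of Ccnd3, Cdkn1a and Cdkn1b hold none, nor does the other window of Cdkn2c. The E2F words TTTCCCGC, TTTGGCGC, TTTCGCGC and TTTGCCGC were also searched, on both strands. None of the 9 windows of these genes holds such a word, beside 2.26% of all windows. A match is a description of the letters and not a measured binding site.

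Cdkn1b (chr6:134920401-134925513) encodes p27, the main CIP/KIP inhibitor by level here. Its signal ran from 73.0 through 105.7 to 129.4 in WT and from 74.3 through 97.5 to 126.6 in KO, and all 6 KO values lay inside the WT range. The log2 fold change was -0.01 (95% interval -0.38 to 0.36, exact p = 0.926). Cdkn2c (chr4:109660876-109667189), encoding the INK4 inhibitor p18 that limits divisions of stem cells, ran from 11.6 through 16.3 to 27.7 in WT and from 9.77 through 19.3 to 33.7 in KO. KO replicates 4 and 7 lay above every WT library and KO replicate 3 lay below them. The log2 fold change was 0.20 (95% interval -0.47 to 0.86, exact p = 0.552), and it was 0.039 without KO replicate 4, 0.045 without KO replicate 7, 0.38 without KO replicate 3 and 0.0088 without both WT replicate 3 and KO replicate 7.

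Cdkn1a (chr17:29090976-29100727) encodes p21, which p53 induces after DNA damage. One window of its promoter holds 2 CATG cores with 6 bases between them, the spacing of a p53 response element, which reads the same on both strands. It lies at chr17:29090926-29090949 on the + strand and is shown with the cores in capitals.
Cdkn1a: aggaaCATGtcttgaCATGttcag
The stretch lies 53 to 30 bases before the start in that window, and such a pair of cores stands in 0.712% of all windows. The other window of Cdkn1a, chr17:29093519-29093818, belongs to a later start and holds no such pair. The signal of Cdkn1a was not higher in the KO libraries. It ran from 6.60 through 9.63 to 14.8 in WT and from 2.99 through 8.07 to 11.8 in KO, with 3 of the 6 KO values inside the WT range and 3 below it. The log2 difference was -0.43 (exact permutation test, p = 0.242). These values rest on 2.22 to 21.9 reads per library, so a modest difference in either direction was not detectable at this depth.

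Cdkn1c (chr7:143458339-143461050), encoding p57, the imprinted CIP/KIP inhibitor known from quiescent stem cells, was at the floor of the measurement. It was listed at 0 in 3 libraries and reached at most 2.26 signal in WT and 0.996 in KO. The highest value corresponds to 3.33 reads, so no fold change is given (exact permutation test, p = 0.424). Rb1 (chr14:73183673-73325822), which encodes the retinoblastoma protein, ran from 2.15 through 3.60 to 15.3 in WT and from 3.08 through 9.40 to 17.4 in KO. Its highest value was 8.10 times its lowest, and values above 10 occurred in 2 WT and 3 KO libraries. The log2 difference was 0.55 (exact permutation test, p = 0.316), on 3.02 to 16.2 reads per library.

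**Figure D3:**
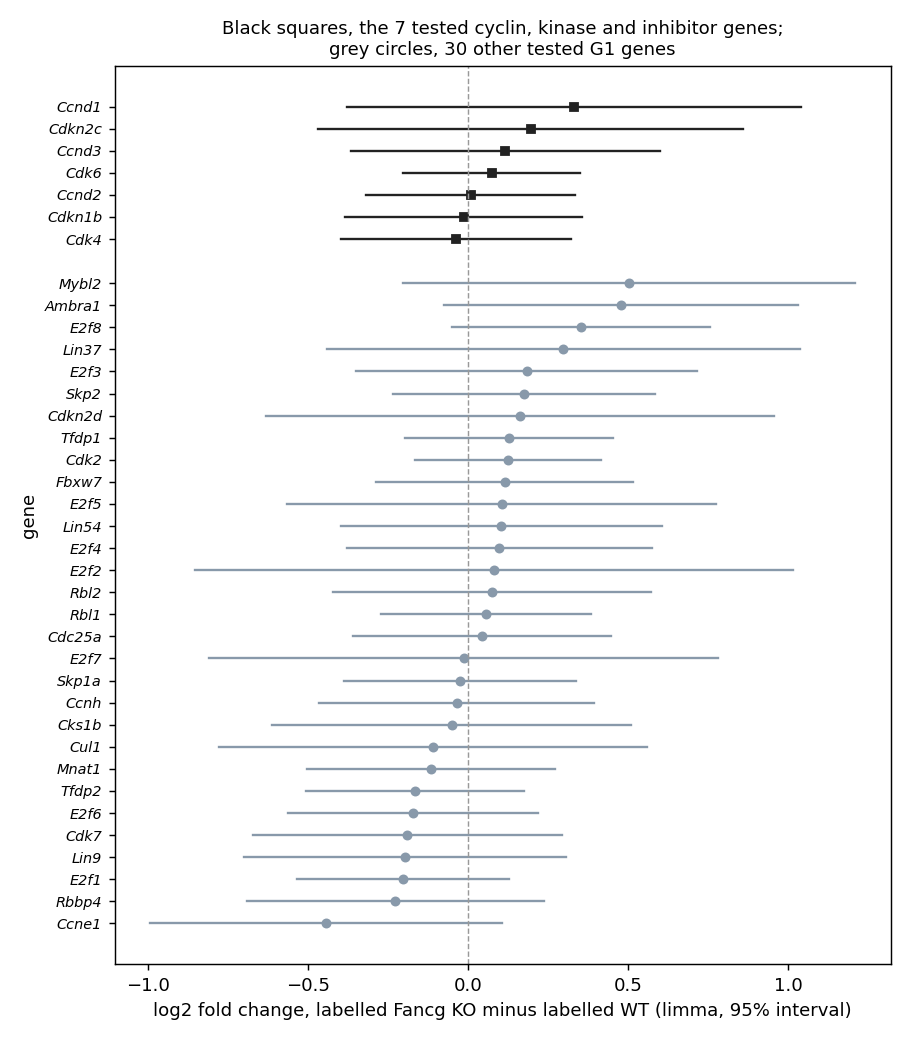
Log2 fold change, labelled KO minus labelled WT (horizontal axis), with its 95% interval from limma, for the 7 tested members as black squares and 30 other tested G1 genes as grey circles. All 37 intervals include 0, and the narrowest among the members is that of Cdk6.

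The genes that act around this switch gave the same count. Of 36 further G1 genes, 30 passed the expression filter, and 0 had a limma p under 0.05 in the higher direction and 0 in the lower, beside 1.98% and 1.69% of all genes tested. Their log2 fold changes had a median of 0.06 and ran from -0.45 to 0.50. The value at the lower end is that of Ccne1, the cyclin that takes over from the D-type cyclins in late G1, at 14.6 in WT and 10.7 in KO. At the upper end stands Mybl2, which encodes the B-Myb factor of the late cycle, at 9.73 and 13.2. The lowest limma p values, both above 0.05 before adjustment, belonged to E2f8, an E2F repressor, with 70.4 and 90.8 (log2 fold change 0.35), and to Ambra1, whose product directs the breakdown of D-type cyclins, with 81.3 and 118.8 (log2 fold change 0.48). Those 4 were picked once their values were known.

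The leading genes of each group by level differed by at most 0.23 in log2 fold change, apart from E2f8 and Ambra1, which are given above and also lead their groups. Cdk2, the partner of cyclin E, had a signal of 104.9 in WT and 115.2 in KO (log2 fold change 0.12), and its activator Cdc25a 17.1 and 17.8 (0.04). The pocket protein gene Rbl1, a relative of Rb1, stood at 128.4 and 135.4 (0.06) and Rbl2 at 26.7 and 29.0 (0.07), both far above the signal of Rb1 itself. Tfdp1, the DNA-binding partner of E2F factors, had 169.0 and 184.8 (0.13). Of the CDK-activating kinase, Mnat1 had 45.7 and 42.0 (-0.12) and Ccnh 39.3 and 38.1 (-0.04). Skp1a, a subunit of the ligase that degrades p27, had 94.5 and 93.5 (-0.03), and Rbbp4 and Lin54 of the MuvB complex had 355.5 and 321.9 (-0.23) and 74.0 and 81.4 (0.10). Of the other INK4 genes, Cdkn2d had 10.7 and 12.9 (0.16), while Cdkn2a and Cdkn2b were listed at 0 in all 12 libraries. None of these had a limma p under 0.05.

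Transcripts of 18 genes of the later phases ranged in mean signal from 13.5 for Plk1 to 732.8 for Mki67 in the same libraries. Values are given for the 2 highest. Mki67, a marker of cycling cells, had a signal of 702.7 ± 152.6 (SD, n = 6) in WT and 763.0 in KO, and the replication helicase gene Mcm6 had 311.0 and 277.2. Of these 18 genes of the S, G2 and M phases, all tested, 13 were above and 5 below 0 in log2 fold change, with a median of 0.07. Of all genes tested, 50.7% were above 0. None of the 18 had a limma p under 0.05.

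Over the 12 mice, Ccnd1 and Ccnd2 varied together in both genotypes. Of the 21 pairs among the 7 tested members, theirs had the highest correlation of log2(signal + 1), with Pearson r = 0.886 (permutation p = 0.00043, Benjamini-Hochberg adjusted over 21 pairs 0.00903) and Spearman rho = 0.846 (permutation p = 0.0010, adjusted 0.0210). The correlation was 0.934 within the WT libraries and 0.936 within the KO libraries, and 0.907 without the 2 libraries farthest from the median of Ccnd1. WT replicates 2 and 5 and KO replicates 4 and 5 were the highest of their genotype in both cyclins, and WT replicates 4 and 7 and KO replicates 6 and 7 were the lowest in both. Among the 8886 other tested genes, each of the 2 cyclins was the gene most correlated with the other after subtraction of the genotype means (r = 0.916), a ranking made after the pair had been seen. Ccnd3 did not share this variation, with r = 0.02 to Ccnd1 and 0.06 to Ccnd2.

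The relation between Ccnd1 and Ccnd2 was computed again in other sets and scalings of the libraries and with some library measures held constant. In the 8 libraries of replicates 4 to 7 it was 0.871, and the 4 libraries of replicates 2 and 3 are too few for a value. With the Lars2 share held constant it was 0.866, with the approximate reads held constant 0.847, and without WT replicate 3 and KO replicate 7 it was 0.867. Both measures were held constant with 1 line over all 12 libraries and not within each genotype, and cell composition was not held constant. Leaving out any 1 library gave 0.872 to 0.928. Rescaling every library to the same total lowered the r of Ccnd1 and Ccnd2 to 0.734, and to 0.670 when Lars2 was left out of the total. The r with the approximate reads was 0.883 for Ccnd1 and 0.951 for Ccnd2 within KO (n = 6) and 0.164 and 0.357 within WT (n = 6), and over all 12 libraries 0 of 21 relations of members to library measures had an adjusted permutation p under 0.05 (the lowest was 0.221 for r). The total spread of Ccnd2 was no wider than counting error alone would give, and the part of counting error in the relation was not tested.

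Cdkn2c and Cdk4, an inhibitor and its target, formed the second pair. Their r was 0.733 (permutation p = 0.00588, adjusted over 21 pairs 0.0617) and their rho 0.657 (permutation p = 0.0239, adjusted 0.235), so the relation failed the correction. It was 0.911 within WT, 0.718 within KO, 0.795 without the 2 libraries farthest from the median and 0.712 in replicates 4 to 7. KO and WT replicate 4 were high in both genes, while KO replicate 3 and WT replicate 7 were low in both. Cdkn2c and Cdk6 had an r of -0.39 and a rho of -0.62 (permutation p = 0.0335, adjusted 0.235). The remaining 18 pairs had adjusted p values of 0.897 or more for r.

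**Figure D4:**
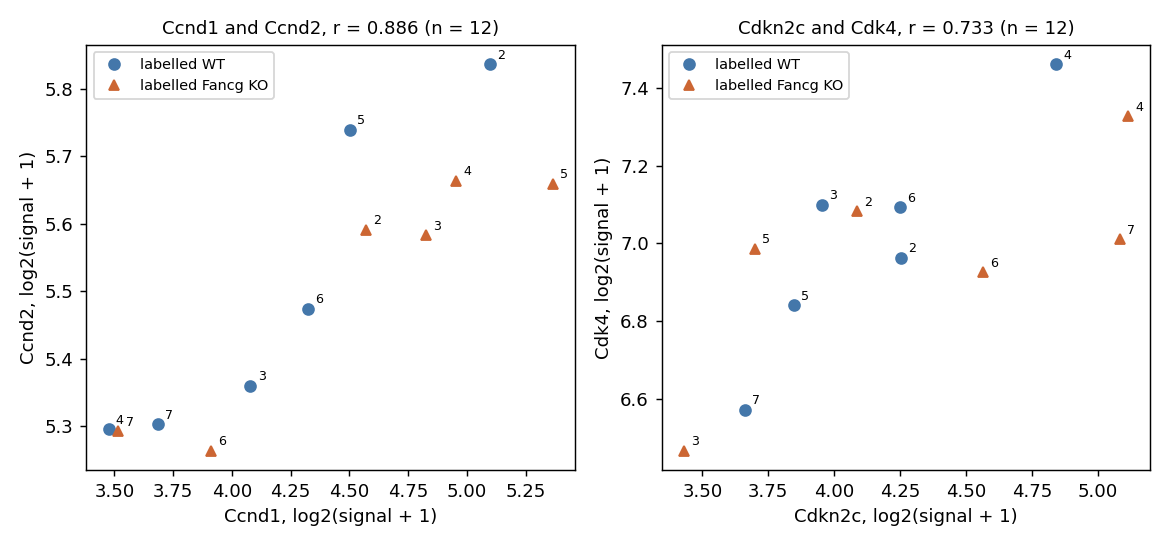
Left, Ccnd2 against Ccnd1, and right, Cdk4 against Cdkn2c, both as log2(signal + 1) with 1 point per library, circles for WT labels and triangles for KO labels, numbered by replicate. The points of both genotypes follow 1 rising band on the left (r = 0.886) and a looser one on the right (r = 0.733).

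The 2 members with the highest signal followed different genes over the mice. The genes most like Cdk6, by r over 12 libraries after subtraction of genotype means, were Rnf146 (0.867), Nvl (0.866) and Kansl1 (0.845). Those most like Cdk4 were Fars2 (0.923), Prss57 (0.914) and Ctc1 (0.861), and Cdkn2c had rank 52 of 8886 for Cdk4 (0.760). Cdk4 and Cdk6 themselves did not vary together (r = -0.15). These are the highest of 8886 values each and carry no test.

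The genotypes were also compared within the 2 sets of libraries that differ in the Lars2 share. Cdkn1c is left out here, since its values are at the floor. In replicates 4 to 7 the log2 differences of the other members ran from -0.25 for Cdkn1a to 0.61 for Rb1. Their exact permutation p values ran from 0.286 to 1.0, where the smallest possible with 4 against 4 is 0.0286. In replicates 2 and 3 the log2 differences ran from -0.81 for Cdkn1a to 0.42 for Rb1. There both KO values of Cdkn1a, 2.99 and 6.49, lay below both WT values, 6.60 and 11.1, and 2 against 2 libraries cannot give a p below 0.333. Cdkn2c, Ccnd3 and Cdk4 had a different sign in each set, at -0.35, -0.21 and -0.26 in replicates 2 and 3 and 0.47, 0.28 and 0.07 in replicates 4 to 7. So did Cdkn1b, at 0.08 and -0.06, and Ccnd2, at -0.011 and 0.017. A change of sign was thus not particular to Cdkn2c, Ccnd3 and Cdk4.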

How the data were processed

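RNA-seq of LSK cells from 12 mice was analysed, with groups and replicate numbers taken from the labels. The authors deposited a table of signal, 1 value per gene in each library, read here as Kallisto estimated reads over a size factor. Their methods name a human genome for Kallisto, and the mouse annotation was not given in the sources used here. Whole reads could not be recovered, since 9.97% to 11.1% of the values above 0 were whole multiples of what 1 read is worth within 0.001 reads, and 19.98% to 21.1% within 0.05 reads, so the depth is approximate and no count test was run. The 8887 of 35999 genes with a mean of 10 or more were tested on log2(signal + 1), a scale that understates changes of low genes, with limma 3.58.1 in R 4.3.3 (trend, two-sided, Benjamini-Hochberg adjustment over all genes tested, no covariate). Single genes had exact permutation tests, and correlations had 100000 permutations, in scipy 1.17.1. The steps were tested on simulated data. The text names all members, the 2 leading genes of each list, listed genes with p under 0.05, and the 3 genes most like the 2 leading members. Positions and lengths come from GENCODE M21, in which 35929 of the gene names were found, and are those of GRCm38. The members and lists were chosen with earlier results of these data known. P-values rest on the spread between these mice with 1 library each, which does not separate the mice from counting and library error.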

Additional observations from a re-analysis of the deposited data

How the results depend on the processing

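The count of members with a limma p under 0.05 was 0 under every alternative run: other pseudocounts, filters and normalizations, the replicate block, no trend, single libraries left out, and without WT replicate 3 and KO replicate 7. The fit without a filter also tested Cdkn1a, Cdkn1c and Rb1, and that at a mean signal of at least 50 tested only Ccnd3, Cdk4, Cdk6 and Cdkn1b. The count over all genes, 326, was 836 without a filter, 91 at a mean signal of at least 50 and 132 after rescaling to the same total without Lars2. The share of these genes that were higher in KO, 54.0%, was 79.5% after rescaling to the same total, 70.5% when Lars2 was left out and 43.5% without the 2 libraries low in Y-linked transcripts; the first 2 scalings shifted the median of all genes to 0.08 and 0.06. Small log2 fold changes turned sign: Cdk4 to 0.042 and 0.017 and Cdkn1b to 0.066 and 0.041 under those scalings, and Ccnd2 to -0.015 under quantile normalization. With each library left out, Ccnd1 ran from 0.16 to 0.53, Cdkn2c from 0.039 to 0.38, Ccnd2 from -0.034 to 0.075, Ccnd3 from -0.015 to 0.22, Cdk4 from -0.13 to 0.061, Cdk6 from -0.0053 to 0.13 and Cdkn1b from -0.10 to 0.068.

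Among the 30 other G1 genes, the count of 0 became 1 with the replicate block (E2f8), 1 without the 2 libraries low in Y-linked transcripts (Rbbp4) and 0 to 2 with each library left out. After subtraction of genotype means, same-numbered libraries had correlations of 0.086 to 0.362, with a mean of 0.196. The mean for libraries of different numbers, -0.039, follows from that subtraction and is no separate baseline. The correlation was over 0.1 in 4 of 6 same-numbered pairs, and 9 of 12 libraries correlated best with their own number. Libraries of the same number thus shared some variation, but so did some of different numbers. WT replicate 3 and KO replicate 2 had 0.208, and WT replicate 7 and KO replicate 6 had 0.149. Other pairs were negative, down to -0.258. The labels do not say that the numbers pair the mice, so the main fit has no block and the block is an alternative. With the block 476 genes had p under 0.05 and 0 passed after adjustment. The order of levels kept 2 of 10 ranks with the median transcript length, and r of Ccnd1 and Ccnd2 was 0.670 after rescaling without Lars2. The alternatives for that r were chosen after seeing the data. The cause of these changes was not tested. About 1235109 to 2471417 reads per library leave Cdkn1a, Cdkn1c and Rb1 on few reads.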
